A study of Mus musculus with 24 samples.

Results

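Circadian clock repressors and output factors were followed across the 8 groups of a macrophage array experiment. The set held 10 genes of 22206 gene features on the array, each measured by a single feature, and they were selected on their symbols: Bhlhe41, Bhlhe40, Per1, Per2, Cry1, Cry2, Nr1d1, Nr1d2, Dbp and Nfil3. The list was drawn up, and Bhlhe41 chosen by its own signal within it, with results of these arrays already known. Bhlhe41 is therefore given as a description with no test, and counts of called members refer to the other 9. Their p-values describe these arrays and are not independent evidence.

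The samples were RAW264.7 cells, an established mouse macrophage line and thus a single transformed cell source. Cells received grape proanthocyanidins (PAC), plant flavanol polymers, as purified fractions of low, medium or high mean degree of polymerization, each at 15 µg/mL. LPS, the endotoxin of Gram-negative bacteria that activates TLR4, followed after 30 min at 500 ng/mL, or a mock treatment in its place, and RNA was taken after 6 h. The groups were low PAC + LPS, medium PAC + LPS, high PAC + LPS, LPS, low PAC, medium PAC, high PAC and control, with 3 arrays each. The 3 fractions were matched by mass and by time, not by molar amount. Samples were numbered 1 to 3 within a group, and no source says that they came from separate cultures, so the p-values given here reflect nothing beyond the spread among the arrays at hand, which may be technical.

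The clock of mammalian cells is a transcriptional feedback loop. The activators CLOCK and BMAL1 bind E-boxes and switch on the Per and Cry genes, whose proteins return to the nucleus and silence the activators, while DEC1 and DEC2, the products of Bhlhe40 and Bhlhe41, occupy the same E-boxes as repressors. REV-ERBα and REV-ERBβ, the products of Nr1d1 and Nr1d2, repress the gene of BMAL1 and many inflammatory genes of macrophages, and at D-boxes the activator DBP is opposed by the repressor NFIL3. Only 1 time point was measured, so a shift in the phase of a rhythm and a change of level cannot be told apart. The arrays read RNA of whole cultures, so fewer cells carrying a transcript and less transcript per cell cannot be told apart either.

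Because several members are both readers and targets of these elements, start-site windows of 4 members that held an E-box or the letters TAGGTCA are shown. Windows of 250 bases before to 50 bases after the annotated start came from RefSeq (GRCm38.p6) and were matched for 8 of the 10 members, all but Bhlhe40 and Per2. Capitals mark the E-box CACGTG and TAGGTCA, a part of the ROR and REV-ERB element (written TGACCTA where it lies on the other strand). They also mark TGACG, the core of the cyclic AMP response element (written CGTCA on the other strand).
Bhlhe41 promoter, chr6:145865371-145865670, minus strand: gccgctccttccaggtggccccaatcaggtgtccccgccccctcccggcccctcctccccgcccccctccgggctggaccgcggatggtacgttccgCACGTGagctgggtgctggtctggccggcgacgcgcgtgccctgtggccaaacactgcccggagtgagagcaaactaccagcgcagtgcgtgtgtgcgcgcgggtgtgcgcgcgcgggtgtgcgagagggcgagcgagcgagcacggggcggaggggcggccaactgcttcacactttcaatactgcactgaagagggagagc
Per1 promoter, chr11:69098699-69098998, plus strand: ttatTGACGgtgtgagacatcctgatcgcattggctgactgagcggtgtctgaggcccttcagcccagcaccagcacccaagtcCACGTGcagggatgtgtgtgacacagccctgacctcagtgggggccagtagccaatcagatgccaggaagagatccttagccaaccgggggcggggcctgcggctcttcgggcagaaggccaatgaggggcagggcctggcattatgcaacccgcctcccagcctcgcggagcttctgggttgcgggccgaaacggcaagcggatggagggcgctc
Cry1 promoter, chr10:85185005-85185304, minus strand: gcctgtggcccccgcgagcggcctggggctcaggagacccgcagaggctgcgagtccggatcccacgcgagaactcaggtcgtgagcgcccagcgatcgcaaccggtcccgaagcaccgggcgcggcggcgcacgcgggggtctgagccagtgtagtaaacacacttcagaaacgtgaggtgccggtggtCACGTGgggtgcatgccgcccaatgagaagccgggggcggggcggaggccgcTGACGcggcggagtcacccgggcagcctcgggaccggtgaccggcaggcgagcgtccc
Nfil3 promoter, chr13:52980990-52981289, minus strand: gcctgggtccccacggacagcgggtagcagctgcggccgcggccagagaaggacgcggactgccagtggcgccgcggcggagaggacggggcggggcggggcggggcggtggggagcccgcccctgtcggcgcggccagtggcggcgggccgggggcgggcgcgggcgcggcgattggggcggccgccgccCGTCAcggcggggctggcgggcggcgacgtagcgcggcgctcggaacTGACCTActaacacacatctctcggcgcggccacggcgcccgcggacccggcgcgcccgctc
Counted from the annotated start, the E-box began at position -153 in Bhlhe41, -166 in the Per1 window shown and -60 in Cry1. It was present in 7.15% of all 32851 windows searched on both strands. Another annotated start of Per1 (window chr11:69099902-69100201, not shown) held no E-box, with TGACG at position -132. TAGGTCA began at position -12 in Nfil3 and was present in 2.61% of all windows, and the full ROR and REV-ERB element was not searched. TGACG, a part of the full element TGACGTCA, was found in Per1, Cry1, Cry2 and Nfil3 windows and in 20.8% of all windows. The full element TGACGTCA (1.79% of all windows) and the D-box forms TTATGTAA (0.938%) and TTACGTAA (0.119%) were found in no member window, and the windows of Nr1d1, Nr1d2 and Dbp held none of the letters searched. A match is a description of the letters and not evidence of binding.

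Values are given as the deposited log2 signal, and differences are on that scale. Receptor genes of smell and of the vomeronasal organ set a silent level of 4.73, the 95th percentile of their 1412 features. The gene medians of the 24 arrays ran from 4.86 to 5.06, and arrays of one group correlated at 0.989 to 0.994. All 8 measured macrophage markers lay above the silent level in every group, while the defining B cell and epithelial markers lay below it in every group. Of the 5 T cell markers, Cd4 alone exceeded the silent level, as did S100a8 of 4 neutrophil markers in some groups and Col1a1 of 3 fibroblast markers. Il1b was raised in 3 resting arrays, at 9.39 in replicate 3 of medium PAC and at 11.92 and 9.62 in replicates 2 and 3 of high PAC, against 6.40, 5.30 and 4.86 in control. Without these 3 arrays the number of called members was the same in 15 of the 16 comparisons, the exception being the interaction of medium PAC with LPS.

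LPS moved most of the set. Of the 9 tested members, 5 were higher with LPS than in control (Nfil3, Nr1d1, Cry2, Per1 and Bhlhe40) and 2 were lower (Dbp and Nr1d2) at an adjusted p under 0.05, where 33.7% of all gene features were called, 13.5% higher and 20.3% lower. The median difference of the 9 was 0.83, against 0.03 over all features. Medium PAC + LPS differed from LPS in 5 of 9 members, with Bhlhe40 and Nr1d2 higher and Nfil3, Nr1d1 and Cry2 lower, against a background of 14.6% of features, 7.17% higher and 7.47% lower. The median size of their difference, regardless of sign, was 0.95, against 0.27 for all features. High PAC + LPS differed from LPS in 3 of 9, Bhlhe40 higher and Nr1d1 and Nfil3 lower, with a background of 10.1%, 4.34% higher and 5.74% lower. Low PAC + LPS differed from LPS in 0 of 9 by limma (2 at an unadjusted p under 0.05) where 0.149% of features were called.

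In resting cells PAC moved fewer members. Medium PAC raised Bhlhe40 and lowered Nr1d1 relative to control, 2 of 9 against a background of 11.3%, with 5.03% higher and 6.28% lower. High PAC raised Bhlhe40 alone, with a background of 6.85%, 3.21% higher and 3.64% lower. Low PAC changed 0 of 9 by limma (1 at an unadjusted p under 0.05), with 0.036% of features called. Because medium and high PAC comparisons share the same control arrays, and the comparisons with LPS share the same LPS arrays, the counts are not independent of each other.

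**Figure D1:**
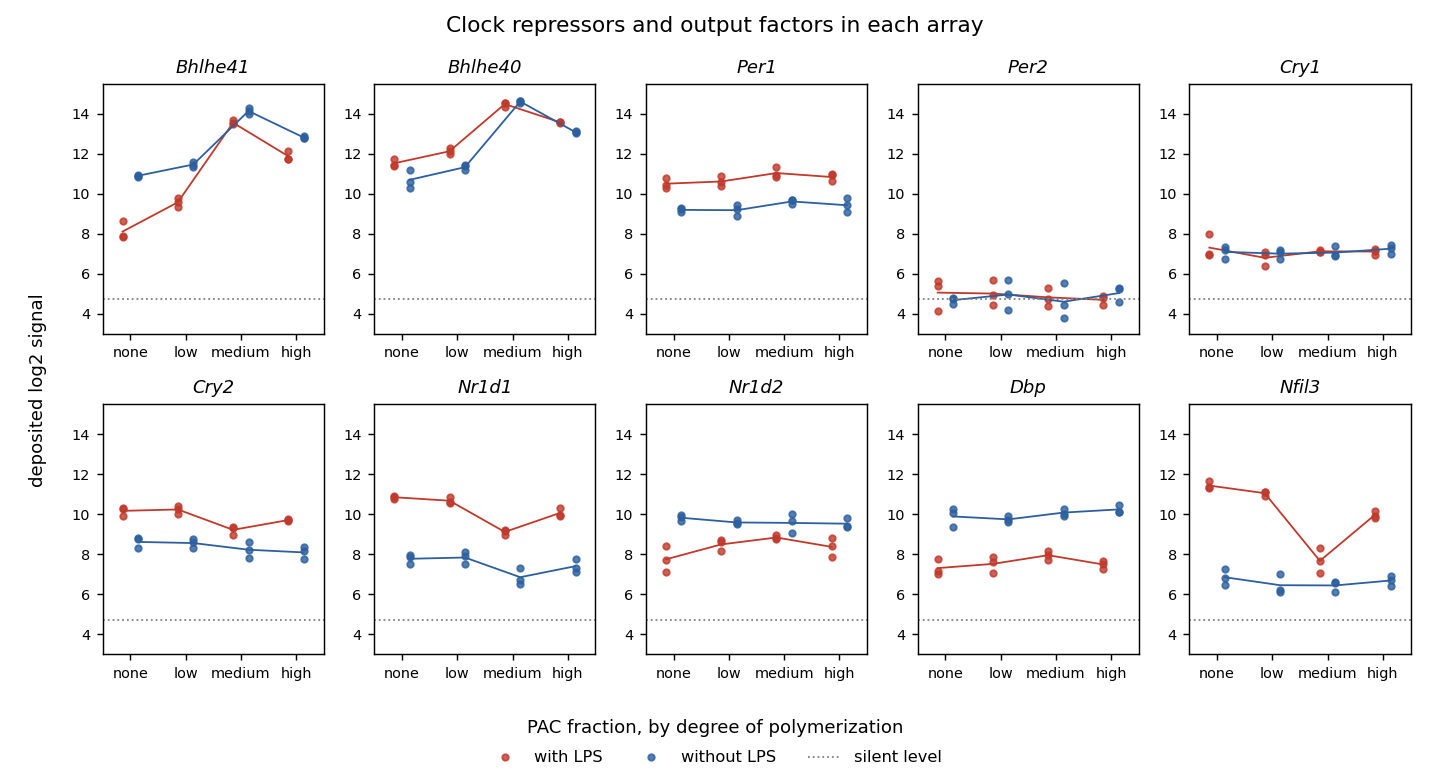
Deposited log2 signal (vertical axis) of the 10 clock genes in each of 24 arrays, by PAC fraction (horizontal axis), with LPS in red and without LPS in blue. Points are arrays, lines join group means and the dotted line is the silent level of 4.73. Bhlhe41 and Bhlhe40 peak with medium PAC in both states, and Nfil3 with LPS has its lowest level with medium PAC.

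Bhlhe41 had the widest spread of the 10 genes. Its group means spanned 6.02, a range above that of 98.2% of the features that exceeded the silent level. With LPS, its signal was 7.86, 7.82 and 8.64 without PAC, 9.61, 9.77 and 9.34 with low PAC, 13.51, 13.66 and 13.47 with medium PAC and 12.15, 11.73 and 11.74 with high PAC. Without LPS, it was 10.95, 10.89 and 10.85 in control, 11.45, 11.34 and 11.59 with low PAC, 14.29, 14.13 and 13.97 with medium PAC and 12.79, 12.76 and 12.86 with high PAC. No pair of groups overlapped. From lowest to highest the means ran LPS (8.11 ± 0.46), low PAC + LPS (9.57 ± 0.22), control (10.90 ± 0.05), low PAC (11.46 ± 0.13), high PAC + LPS (11.87 ± 0.24), high PAC (12.81 ± 0.05), medium PAC + LPS (13.55 ± 0.10) and medium PAC (14.13 ± 0.16) (SD, n = 3 each). The closest neighbours in this order, high PAC + LPS and low PAC, came near each other at 11.73 and 11.59.

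LPS went with less Bhlhe41, a difference of -2.79 from control. Every PAC fraction went with more of it, by 1.46 in low PAC + LPS, 5.44 in medium PAC + LPS and 3.76 in high PAC + LPS relative to LPS. The differences from control in resting cells were 0.56 with low, 3.24 with medium and 1.91 with high PAC. The group with medium PAC + LPS thus lay above control, and low PAC + LPS lay below it. In LPS arrays replicate 3, at 8.64, was the highest, and without it the difference of medium PAC + LPS from LPS was 5.71. Quantile normalization gave 5.21 for that difference and -2.55 for LPS against control.

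Bhlhe40, the close relative of Bhlhe41, followed the same order of fractions but not the same direction with LPS. With LPS it read 11.43, 11.38 and 11.76 without PAC, 11.99, 12.27 and 12.11 with low PAC, 14.55, 14.55 and 14.34 with medium PAC and 13.57, 13.60 and 13.54 with high PAC. In resting cells it read 11.20, 10.27 and 10.60 in control, 11.17, 11.44 and 11.37 with low PAC, 14.62, 14.65 and 14.55 with medium PAC and 13.02, 13.11 and 13.08 with high PAC. All 12 arrays with medium or high PAC lay above all 12 others. Control spread most, with replicate 1 inside the range of low PAC.

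Bhlhe40 rose with LPS by 0.83 relative to control (SE 0.17, adjusted p = 0.00055), where Bhlhe41 was lower. Medium PAC + LPS raised it by 2.96 over LPS (SE 0.17, adjusted p = 9e-11) and high PAC + LPS by 2.05 (adjusted p = 1e-07). In resting cells the difference from control was 3.91 with medium PAC (adjusted p = 2.5e-12) and 2.38 with high PAC (adjusted p = 1.3e-08). Low PAC did not pass the test, with 0.60 over LPS (95% interval 0.24 to 0.96, adjusted p = 0.3) and 0.63 over control (0.27 to 0.99, adjusted p = 0.45). Its mean was 14.48 ± 0.12 in medium PAC + LPS and 14.61 ± 0.05 in medium PAC (SD, n = 3 each).

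**Figure D2:**
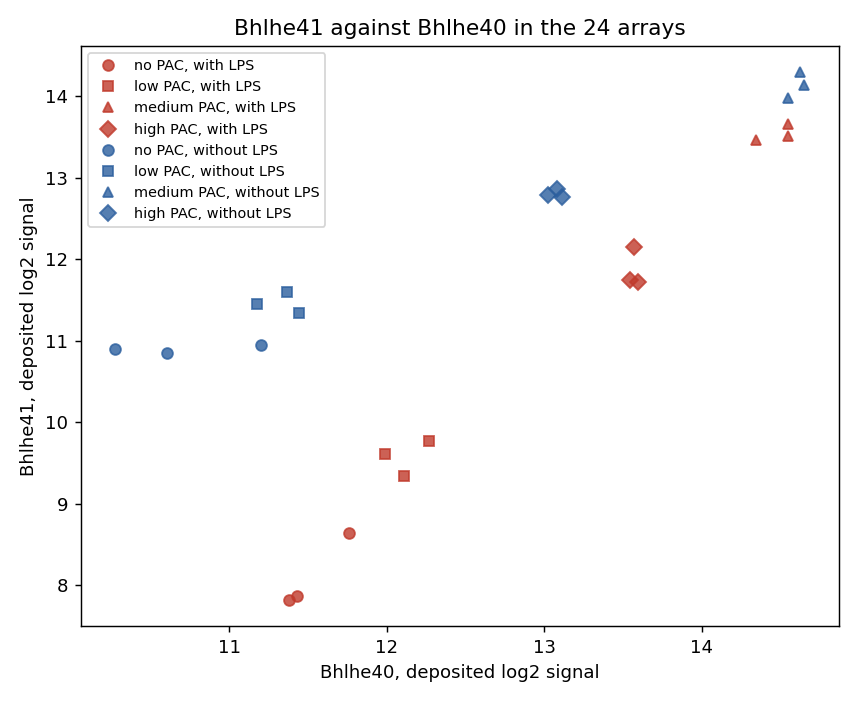
Bhlhe41 (vertical axis) against Bhlhe40 (horizontal axis), both as deposited log2 signal, in the 24 arrays. Symbols mark the PAC fraction, red arrays had LPS and blue arrays did not. Medium PAC arrays of both states lie at the upper right, with Bhlhe41 at 13.47 to 13.66 with LPS and 13.97 to 14.29 without it. LPS arrays (Bhlhe41 at 7.82 to 8.64) and control arrays (10.85 to 10.95) lie apart along the Bhlhe41 axis.

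Per1 and the Cry genes encode the repressors that close the main loop. Per1 read 10.41, 10.79 and 10.30 with LPS, against 9.22, 9.07 and 9.28 in control. The groups were well apart, and the difference of 1.31 passed the test (SE 0.20, adjusted p = 1.5e-05). With PAC added to LPS, it read 10.87, 10.40 and 10.56 for low, 11.35, 10.82 and 10.92 for medium and 10.97, 10.92 and 10.61 for high PAC. All 12 arrays with LPS lay above all 12 without it. Medium PAC + LPS stood 0.53 above LPS with no overlap, but this did not pass the test (95% interval 0.12 to 0.94, adjusted p = 0.084). In resting cells Per1 averaged 9.18 ± 0.29 with low PAC, 9.61 ± 0.11 with medium PAC and 9.42 ± 0.34 with high PAC, and none of these differed from control at the threshold.

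Cry2 read 10.30, 10.27 and 9.92 with LPS, against 8.78, 8.76 and 8.30 in control, and rose by 1.55 (SE 0.21, adjusted p = 2.8e-06). Medium PAC + LPS arrays, at 9.37, 9.30 and 8.98, all lay below the LPS arrays. Cry2 fell there by 0.95 relative to LPS (SE 0.21, adjusted p = 0.0024). Low PAC + LPS arrays, at 10.26, 10.03 and 10.42, overlapped with LPS. High PAC + LPS arrays read 9.75, 9.67 and 9.70, below each LPS array, with a difference of -0.46 that did not pass the test (95% interval -0.89 to -0.03, adjusted p = 0.19). In resting cells it averaged 8.56 ± 0.22 with low, 8.22 ± 0.39 with medium and 8.09 ± 0.32 with high PAC, and each of these overlapped with control.

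Cry1 and Per2 passed the test in no comparison. Cry1 lay between 6.37 and 7.99 in all 24 arrays, and its group means spanned only 0.51. It averaged 7.31 ± 0.59 with LPS and 7.09 ± 0.31 in control, and its difference of 0.21 had a 95% interval of -0.31 to 0.74. LPS replicate 3, at 7.99, was its highest array. Per2 lay between 3.81 and 5.69, close to the silent level, and its mean exceeded that level in 5 of 8 groups. A difference in Per2 was not detectable at this signal: for medium PAC + LPS it was -0.24 relative to LPS, with an interval of -1.17 to 0.70.

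The REV-ERB genes moved in opposite directions with LPS. Nr1d1 read 10.89, 10.78 and 10.87 with LPS, against 7.94, 7.51 and 7.87 in control, a rise of 3.08 (SE 0.21, adjusted p = 1.3e-10). Nr1d2 read 7.11, 7.69 and 8.43 with LPS, against 9.86, 9.95 and 9.64 in control, and fell by 2.08 (SE 0.29, adjusted p = 4.6e-06). In both genes the 12 arrays with LPS and the 12 without it did not overlap.

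Medium PAC lowered Nr1d1 in both states. With LPS, Nr1d1 read 10.60, 10.88 and 10.54 for low PAC, 9.17, 9.19 and 8.97 for medium PAC and 10.29, 9.97 and 9.93 for high PAC. Every medium PAC + LPS and high PAC + LPS array lay below every LPS array. Nr1d1 fell by 1.73 in medium PAC + LPS (SE 0.21, adjusted p = 3.3e-06) and by 0.78 in high PAC + LPS (adjusted p = 0.019), both relative to LPS. The call for high PAC + LPS was lost in a fit of the 2 groups alone, and also without LPS replicate 1 or 3 or without high PAC + LPS replicate 2 or 3, with differences of -0.78 to -0.72. Without LPS, Nr1d1 read 8.10, 7.50 and 7.91 with low PAC, 6.52, 7.32 and 6.71 with medium PAC and 7.77, 7.32 and 7.11 with high PAC. Medium PAC arrays lay below every control array, and Nr1d1 fell there by 0.92 relative to control (SE 0.21, adjusted p = 0.005), a call that was lost when only these 2 groups entered the fit. In annotation the gene shares chr11:98767932-98769006 (GRCm38.p6) with Thra, a thyroid hormone receptor gene. Thra group means stayed between 7.06 and 7.76, with a difference of -0.11 for LPS against control (adjusted p = 0.77) and 0.05 for medium PAC + LPS against LPS (adjusted p = 0.93). In resting cells Thra differed from control in the same direction as Nr1d1, by -0.63 with medium PAC (95% interval -1.10 to -0.17, adjusted p = 0.076) and by -0.53 with high PAC (adjusted p = 0.2). Neither passed the test, the medium PAC and control arrays of Thra did not overlap, and its part in the Nr1d1 values was not tested.

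Nr1d2 with PAC and LPS read 8.62, 8.15 and 8.70 for low, 8.74, 8.79 and 8.97 for medium and 8.40, 8.82 and 7.87 for high PAC. Medium PAC + LPS arrays lay above all LPS arrays, and the difference of 1.09 passed the test (SE 0.29, adjusted p = 0.011). The LPS arrays spread over more than a log2 unit. Without LPS replicate 1, the lowest, the difference was 0.77 and no longer passed, and the call was also lost in a fit of these 2 groups alone. In resting cells Nr1d2 averaged 9.59 ± 0.09 with low, 9.56 ± 0.46 with medium and 9.52 ± 0.26 with high PAC, against 9.82 ± 0.16 in control, and none of these differences passed.

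The D-box factors moved in opposite directions with LPS. Dbp, the activator, read 7.14, 7.77 and 7.01 with LPS, against 9.35, 10.23 and 10.07 in control, and fell by 2.58 (SE 0.24, adjusted p = 2.1e-08). Its arrays with LPS, at 7.01 to 8.18 over all fractions, lay below those without LPS, at 9.35 to 10.46. PAC left no called difference in Dbp. Medium PAC + LPS read 8.18, 7.96 and 7.71, which was 0.64 above LPS (95% interval 0.14 to 1.15, adjusted p = 0.089), and LPS replicate 2 lay within its range. Dbp averaged 7.52 ± 0.41 in low PAC + LPS and 7.48 ± 0.22 in high PAC + LPS, against 7.31 ± 0.41 in LPS. In resting cells it averaged 9.74 ± 0.15 with low, 10.08 ± 0.18 with medium and 10.24 ± 0.20 with high PAC, against 9.89 ± 0.47 in control.

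Nfil3, the repressor, read 11.64, 11.33 and 11.31 with LPS, against 6.44, 6.83 and 7.28 in control. The rise of 4.58 (SE 0.28, adjusted p = 2.4e-11) was the largest difference with LPS among the 10 genes. With LPS and PAC, it read 10.92, 11.10 and 11.12 for low, 8.28, 7.05 and 7.67 for medium and 9.93, 9.83 and 10.17 for high PAC. The 4 groups with LPS did not overlap, and medium PAC + LPS replicate 2 lay within the range of control. Relative to LPS, Nfil3 fell by 3.76 in medium PAC + LPS (SE 0.28, adjusted p = 3.4e-09) and by 1.45 in high PAC + LPS (adjusted p = 0.0014). The difference of low PAC + LPS from LPS was -0.38 (95% interval -0.96 to 0.20, adjusted p = 0.8). Without LPS it read 7.03, 6.11 and 6.21 with low, 6.63, 6.57 and 6.12 with medium and 6.71, 6.43 and 6.92 with high PAC, all 3 groups overlapping with control. Medium PAC + LPS averaged 7.67 ± 0.62 and the widest SD of Nfil3 belonged to this group.

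**Figure D3:**
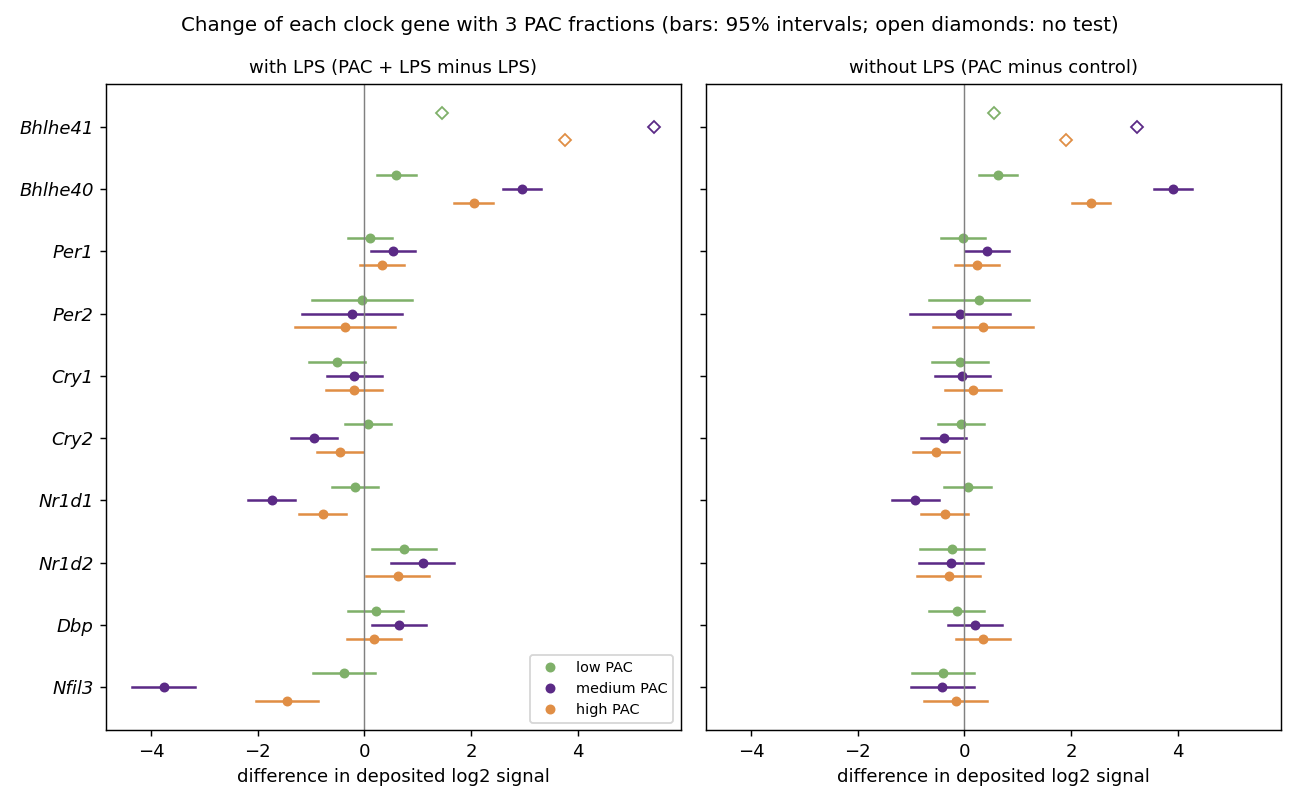
Difference in deposited log2 signal (horizontal axis) of each gene, PAC + LPS minus LPS on the left and PAC minus control on the right, for low, medium and high PAC. Points are fitted differences with 95% intervals that are not adjusted for multiple testing, and open diamonds are Bhlhe41, which was not tested. With LPS, medium PAC lies at 5.44 for Bhlhe41, 2.96 for Bhlhe40 and -3.76 for Nfil3.

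The 3 fractions differ in their mean degree of polymerization and were compared in pairs at equal mass and time, 3 pairs in each state. Medium PAC + LPS differed from low PAC + LPS in 4 of 9 members (background 12.5%). Bhlhe40 was higher by 2.36 (adjusted p = 3.8e-09), while the differences were -3.38 for Nfil3 (adjusted p = 2.2e-08), -1.56 for Nr1d1 (adjusted p = 1.6e-05) and -1.02 for Cry2 (adjusted p = 0.0015). Medium PAC + LPS differed from high PAC + LPS in 3 of 9 (background 5.37%). Bhlhe40 was higher by 0.91 (adjusted p = 0.0024), Nfil3 differed by -2.31 (adjusted p = 2.5e-05) and Nr1d1 by -0.95 (adjusted p = 0.0088). The Bhlhe40 and Nr1d1 calls of this pair were lost when only its 2 groups entered the fit. High PAC + LPS differed from low PAC + LPS in 2 of 9 (background 6.99%), with Bhlhe40 higher by 1.45 (adjusted p = 1.8e-05) and Nfil3 at -1.07 (adjusted p = 0.022). The Nfil3 call of this pair was lost without low PAC + LPS replicate 2 or 3 or high PAC + LPS replicate 1 or 2, at -1.05 to -0.997.

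In resting cells Bhlhe40 set every pair of fractions apart. It was higher in medium than in low PAC by 3.28 (adjusted p = 6.6e-11) and in medium than in high PAC by 1.53 (adjusted p = 3.2e-05). It was also higher in high than in low PAC by 1.75 (adjusted p = 2.1e-06). Nr1d1 was lower in medium than in low PAC, with a difference of -0.98 (adjusted p = 0.0034) that did not pass when only these 2 groups were fitted. Between medium and high PAC the difference of Nr1d1 was -0.55 (95% interval -0.99 to -0.12, adjusted p = 0.25). These made 2 of 9 members for medium against low PAC (background 8.74%), 1 for medium against high PAC (2.27%) and 1 for high against low PAC (4.88%). The last 2 background shares rest on 504 and 1083 called features, numbers that were 313 for medium against high PAC without high PAC replicate 2 and 698 for high against low PAC without low PAC replicate 1. For Bhlhe41 the corresponding differences, with no test, were 2.67 in medium over low, 1.33 in medium over high and 1.35 in high over low PAC, and 3.98, 1.67 and 2.30 for the same pairs with LPS. Per1, Per2, Cry1, Nr1d2 and Dbp passed in none of the 6 pairs. Their intervals leave room for differences: in medium PAC + LPS against high PAC + LPS, that of Dbp ran from -0.04 to 0.97 and that of Nr1d2 from -0.13 to 1.07.

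Whether a fraction acted differently with and without LPS was tested as an interaction, the PAC difference with LPS minus that in resting cells. For medium PAC, 2 of 9 members passed, where 6.29% of all features did. The interaction was -3.35 for Nfil3 (SE 0.40, adjusted p = 9e-06) and -0.95 for Bhlhe40 (SE 0.24, adjusted p = 0.02). Nfil3 averaged 6.85 in control, with the silent level at 4.73. Resting cells thus left little room for a difference of -3.76, that of medium PAC + LPS from LPS. The Bhlhe40 call was lost when only the 4 groups of the interaction were fitted, and also without control replicate 2 or 3, LPS replicate 3 or medium PAC + LPS replicate 3, at -0.91 to -0.74. For Nr1d2 the value was 1.35 (95% interval 0.50 to 2.19, adjusted p = 0.053) and for Nr1d1 -0.81 (-1.43 to -0.20, adjusted p = 0.13). For high PAC 0 of 9 passed by limma (2 at an unadjusted p under 0.05, background 1.91%), and for low PAC 0 of 9 (1 unadjusted, background 0%). For Bhlhe41 the same quantity, with no test, was 0.90 with low, 2.20 with medium and 1.85 with high PAC. With quantile normalization it was 1.83 with medium and 1.60 with high PAC. Without LPS replicate 3 it was 1.17 with low, 2.47 with medium and 2.12 with high PAC.

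Other genes of the clock were taken from a list of 31 activators, further repressors and outputs, kinases, ubiquitin ligases and co-regulators, of which 28 were measured and 21 exceeded the silent level in some group. LPS changed 16 of 28 (57.1%), 5 higher and 11 lower than control, with a median difference of -0.21 over the list, where 33.7% of all features were called, 13.5% higher and 20.3% lower. Arntl, which encodes BMAL1, averaged 12.16 ± 0.23 with LPS and 11.07 ± 0.13 in control (SD, n = 3 each), a rise of 1.09 (adjusted p = 3.2e-06). Its partner Clock fell by 0.56 (adjusted p = 0.0022). Noct, which encodes the rhythmic phosphatase nocturnin, averaged 13.03 ± 0.21 with LPS and 9.57 ± 0.40 in control, higher by 3.46 (adjusted p = 2.7e-11). Nampt, the rate-limiting enzyme of NAD salvage, was higher by 2.22 (adjusted p = 1.2e-11) and Ciart, a repressor of CLOCK and BMAL1, by 1.71 (adjusted p = 3.2e-05), and the ubiquitin ligase subunit gene Fbxw11 rose as well, by 0.47.

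Among the 11 lower with LPS, Wee1, a kinase that restrains entry into mitosis, averaged 7.17 ± 0.34 with LPS and 12.14 ± 0.09 in control, a difference of -4.98 (adjusted p = 5.5e-12). Timeless and Tipin, partners in the protection of replication forks, fell by 2.90 and 2.88. Usp2, a deubiquitinase that acts on clock proteins, averaged 9.05 ± 0.32 with LPS and 11.71 ± 0.12 in control, a difference of -2.67 (adjusted p = 2.2e-11). Csnk1e, a kinase of PER proteins, fell by 1.16, and Per3, Id2, Gsk3b, Nono and Hdac3 were also lower. Per3 lay below the silent level in both groups.

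Medium PAC + LPS changed 9 of the 28 (32.1%) relative to LPS, 6 higher and 3 lower, against 14.6% of all features. Usp2 averaged 11.35 ± 0.06 there, against 9.05 ± 0.32 in LPS, higher by 2.30 (adjusted p = 1.5e-09). Noct averaged 9.85 ± 0.33, against 13.03 ± 0.21 in LPS, and fell by 3.18 (adjusted p = 7.3e-10). Arntl averaged 11.02 ± 0.13, against 12.16 ± 0.23 in LPS, and fell by 1.14 (adjusted p = 7.5e-06), beside 11.07 ± 0.13 in control. Id2, a helix-loop-helix protein that cannot bind DNA itself, rose by 1.51 (adjusted p = 3.2e-08) and Wee1 by 1.69 (adjusted p = 0.00014). Nampt and Nono rose by 0.61 and 0.42, Fbxw11 fell by 0.49, and Rora passed at 1.24 (adjusted p = 0.036) with both means, 4.71 in medium PAC + LPS and 3.47 in LPS, below the silent level, while its 2 other features read -0.20 and 0.21 and did not pass. High PAC + LPS changed 4 (14.3%, against 10.1% of all features), with Usp2 and Id2 higher by 1.28 and 1.09 and Noct and Arntl lower, at -1.02 and -0.82. Low PAC + LPS changed 0 of 28 by limma (2 at an unadjusted p under 0.05), where 0.149% of all features were called.

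In resting cells the share of the list that was called was near that of all features. Medium PAC changed 4 of 28 (14.3%, against 11.3%) relative to control, with Nampt higher by 0.88 (adjusted p = 6.1e-05) and Id2 by 0.70 (adjusted p = 0.00084), while Noct differed by -1.26 (adjusted p = 0.00031) and Hdac3, a co-repressor partner of REV-ERB, by -0.38 (adjusted p = 0.031). High PAC changed 2 of 28 (7.14%, against 6.85%), Btrc (0.55, adjusted p = 0.032) and Id2 (-0.56, adjusted p = 0.0094). Low PAC changed 0 by limma (3 at an unadjusted p under 0.05), where 0.036% of all features were called. Id2 was thus higher with medium and lower with high PAC, each relative to control, and the fractions differed by 1.26 (medium minus high, adjusted p = 1.5e-05). The interaction of medium PAC with LPS passed for 5 of 28 (17.9%, against 6.29% of all features), with Usp2 at 1.91, Wee1 at 1.41, Id2 at 0.81, Arntl at -1.05 and Noct at -1.93. That of high PAC with LPS passed for 3 of 28 (10.7%, against 1.91%), positive for Usp2 and Id2 and negative for Arntl.

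**Figure D4:**
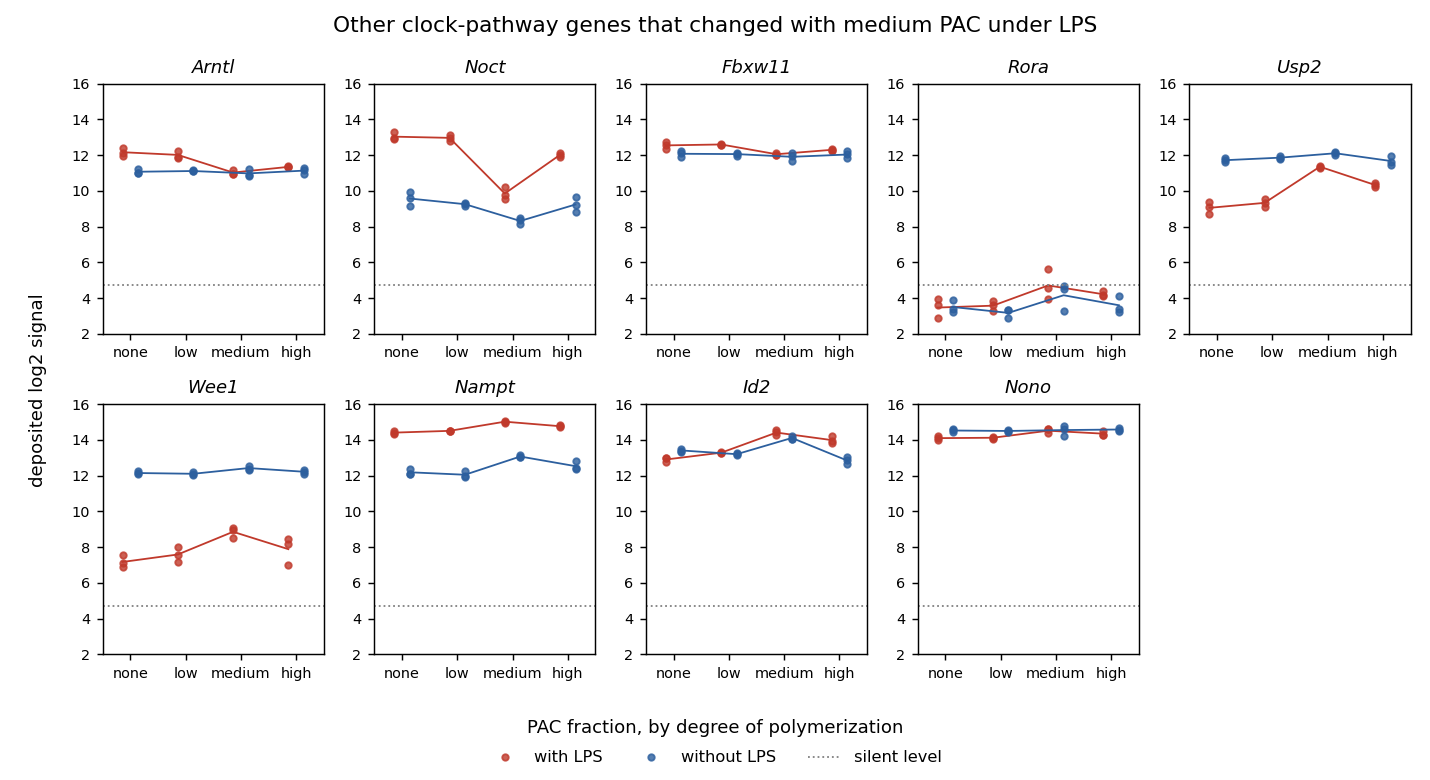
Deposited log2 signal (vertical axis) of the 9 further clock genes called between medium PAC + LPS and LPS, in each array, by PAC fraction (horizontal axis), with LPS in red and without LPS in blue. Points are arrays, lines join group means and the dotted line is the silent level of 4.73. Usp2 with LPS reaches 11.35 with medium PAC, while Noct is lowest there at 9.85 among the groups with LPS.

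Across the 8 group means, the 5 genes most like Bhlhe41 were sought among 6700 named features above the silent level whose means spanned at least 1. They were Gpr137b-ps (Pearson r = 0.994), Cd180 (0.994), Gpr137b (0.993), Uap1l1 (0.990) and Npc1 (0.989). Gpr137b-ps is a near-identical copy of Gpr137b, so their signals may not be separable. Cd180, a receptor-like relative of TLR4, averaged 16.34 in medium PAC + LPS, against 13.83 in LPS, and Npc1, a lysosomal cholesterol transporter, averaged 11.80 and 9.24 in the same groups. Among the other 9 members the closest was Bhlhe40 (r = 0.758), while Nfil3, Cry2 and Nr1d1 ran opposite (-0.748, -0.715 and -0.713). These are descriptions over 8 points that all share the split between cells with and without LPS.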

How the data were processed

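RNA of 24 samples of RAW264.7 cells was labelled with a WT PLUS kit and run on a Clariom S HT plate with a GeneTitan instrument, and the study analysed the arrays in Transcriptome Analysis Console. The authors deposited log2 signals, already normalized and summarised per feature; how signals were summarised and corrected for background is not stated in any source used here. Of 28846 features, 6640 array controls were left out. Deposited values ran from 0.95 to 19.26, and 8242 values exceeded 16, the limit of a 16-bit pixel, so the log2 differences are on the deposited scale and are not converted to folds. No gene-level depth exists for arrays, and 3 arrays per group limit the precision.

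Tests used limma (version 3.58.1, under R 4.3.3), as 1 model of all 24 arrays with 1 mean per group (16 residual degrees of freedom), moderated variances, and two-sided p-values adjusted by Benjamini and Hochberg over 22206 gene features within each of 16 comparisons. A call was an adjusted p under 0.05. Tests were checked on simulated data. The members, the list of further clock genes (of 31, named with values only where called) and the cell type markers were chosen with earlier results of these data known. Where a gene had several features, that with the highest mean was used. Replicate numbers did not pair the samples. The alternatives were quantile normalization, a filter at the silent level, a variance trend with robust prior, a fit of the compared groups only, a replicate block and leaving out each array.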

Additional observations from a re-analysis of the deposited data

Results flagged for a closer look

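The interaction of medium PAC with LPS, tested itself, passed for 2 of the 9 tested members, where 6.29% of all features passed. Nfil3 differed by -3.76 between medium PAC + LPS and LPS, and by -0.41 between medium PAC and control, an interaction of -3.35 (limma, adjusted p = 9e-06). With Nfil3 at 6.85 in control and the silent level at 4.73, resting cells left little room for a fall as large as that with LPS. Bhlhe40 was higher with medium PAC in both states, by 2.96 in medium PAC + LPS over LPS and by 3.91 in medium PAC over control, an interaction of -0.95 (limma, adjusted p = 0.02). Without PAC, Bhlhe40 averaged 11.52 ± 0.21 in LPS and 10.69 ± 0.47 in control (SD, n = 3 each). The Bhlhe40 call was lost in the fit of the compared groups only, without the 3 resting PAC arrays with high Il1b and in 4 of the fits that left out 1 array (control replicate 2, control replicate 3, LPS replicate 3 or medium PAC + LPS replicate 3).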

How the results depend on the processing

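No called member changed direction under these alternatives. The alternatives were followed for the members only, and the calls of the further clock genes were not checked in this way. Fitting only the compared groups left 1 called member each for medium PAC against control, medium against low PAC, medium PAC + LPS against high PAC + LPS and the interaction of medium PAC with LPS. The calls lost were Nr1d1 in the comparisons without an interaction, Bhlhe40 in the interaction, and Bhlhe40 as well between medium PAC + LPS and high PAC + LPS. The same fit lost Nr1d2 for medium PAC + LPS against LPS and Nr1d1 for high PAC + LPS against LPS, leaving 4 and 2 members. This fit has fewer residual degrees of freedom. A variance trend with robust prior gave 1 call, Bhlhe40, for low PAC against control (0.63) and 1, Bhlhe40, for low PAC + LPS against LPS (0.60). Leaving out each array in turn gave 0 to 1 members for low PAC against control (1, Bhlhe40 at 0.89, without control replicate 1), 1 to 2 for high PAC + LPS against low PAC + LPS and 1 to 3 for the interaction of medium PAC with LPS, where Bhlhe40 left or Nr1d2 joined the calls. Against LPS it gave 4 to 7 for medium PAC + LPS and 2 to 3 for high PAC + LPS. Per1 (0.67) and Dbp (0.88) were called for medium PAC + LPS without LPS replicate 2, where 2818 of 22206 features were called. Without 3 resting PAC arrays with high Il1b, a setting chosen after seeing the data, that interaction was called for 1 member, with Bhlhe40 at -0.98. Quantile normalization called Cry1 for LPS against control at 0.65. The silent-level filter called Per1 (0.53) and Dbp (0.64) for medium PAC + LPS against LPS, 7 members in all. Under that filter 3782 of 12744 features were called in this comparison. The variance trend with robust prior called Per1 (0.53) in it as well. Both this setting and the silent-level filter called Nr1d2 for the interaction of medium PAC with LPS, at 1.35. The filter also called Nr1d1 for high PAC + LPS against low PAC + LPS, at -0.61.

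With the replicate block no member's call changed, and for low PAC + LPS against LPS 18 features were called in place of 33. Same-numbered arrays did not deviate together, with a median correlation of 0.005 over 84 pairs and 2 pairs over 0.1. Counts over all features were lower in the fit of the compared groups only: 603 against 1521 for high PAC against control, 1624 against 2512 for medium PAC, 0 against 8 for low PAC, 829 against 2238 for high PAC + LPS against LPS, 1972 against 3251 for medium PAC + LPS and 0 against 33 for low PAC + LPS. For medium PAC against high PAC it called 55 against 504, and without the 3 arrays with high Il1b 103. Without those 3 arrays the counts were also 782 against 1521 for high PAC against control, 488 against 1083 for high against low PAC and 193 against 425 for the interaction of high PAC with LPS. The variance trend with robust prior gave 71 against 8 for low PAC against control and 80 against 33 for low PAC + LPS against LPS. The causes were not tested. Signals near the silent level, as for Per2, limit what could be detected.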

Other observations

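Over the 8 group means, the members fell into sets that moved together or apart. Cry2, Nr1d1 and Nfil3 followed each other closely, with Pearson correlations of 0.988 (Cry2 and Nr1d1), 0.963 (Cry2 and Nfil3) and 0.964 (Nr1d1 and Nfil3). Dbp and Nr1d2 followed each other at 0.938 and ran opposite to Nr1d1, at -0.967 for Dbp and -0.935 for Nr1d2. Per1 ran with Nr1d1 at 0.795, although medium PAC + LPS gave Per1 its highest mean of the 8 groups and Nr1d1 its lowest mean among the groups with LPS. Bhlhe40 stood at 0.758 with Bhlhe41, 0.428 with Per1 and -0.396 with Per2, and between -0.17 (Cry2) and 0.062 (Cry1) with the rest. These values describe 8 points that share the split between cells with and without LPS, and no p-value is given.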
